A study of Rattus norvegicus with 18 samples.

Results

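The rat MHC region on chromosome 20, which spans the RT1 complex, was described from 1000000 to 6000000 of the rn6 build through its CpG methylation in testis. A CpG of the region was a member when the reads of its 2 strands, summed, came to 10 or more in at least 4 libraries of each group. Of 20450 CpGs of the region listed in any library, 6729 were members, out of 1316745 CpGs of the genome that met the same rule. The libraries are testes of Wistar rats aged 8 weeks, in a chronic sleep restriction group (CSR) and a control group, with 6 CSR and 6 control methylation libraries and 3 CSR and 3 control RNA-seq libraries. Methylation was read by RRBS (reduced representation bisulfite sequencing): MspI cuts DNA at CCGG, and bisulfite turns unmethylated cytosines into T. No other allele, agent or treatment is named for either group. Whether every library is a separate animal is not stated, and the p-values therefore reflect library-to-library spread that may be technical.

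The major histocompatibility complex holds genes for the class I and class II molecules that present peptides to T cells, and in rats its genes carry the prefix RT1. Between and beside these lie genes of antigen processing, complement and cytokines, together with many genes that have no immune role, such as the testis heat shock gene *Hspa1l*. The RT1 region is known for differences between individuals in sequence and in the number of class I genes. In most tissues CpG-rich promoters carry little methylation and the DNA between genes carries much.

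The promoter sequences printed here show the kinds of promoter found in the region, each running from 250 bases before to 50 bases after the start site, 5′ to 3′. *Lta* and *Bak1* are shown because they were the methylated ones among the promoters measured, *RT1-A2* because it stands for the unmethylated class I promoters, and *Slc26a8* because single libraries stood apart there. Capitals mark the CpGs. The letters are RefSeq's, of the GRCr8 build, and the positions were found by matching the spacing of the CpGs to the rn6 positions of the deposited tables. *Lta* was placed on the plus strand at chr20:4852421-4852720, *Bak1* on the minus strand at chr20:5618211-5618510, *RT1-A2* on the plus strand at chr20:5374735-5375034 and *Slc26a8* on the minus strand at chr20:5933062-5933361.
Lta: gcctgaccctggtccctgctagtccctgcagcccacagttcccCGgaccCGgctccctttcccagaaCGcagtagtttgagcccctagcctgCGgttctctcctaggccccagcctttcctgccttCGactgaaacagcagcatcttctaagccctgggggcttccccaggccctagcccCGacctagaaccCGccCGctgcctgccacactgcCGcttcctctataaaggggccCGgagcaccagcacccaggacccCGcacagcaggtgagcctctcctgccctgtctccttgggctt
Bak1: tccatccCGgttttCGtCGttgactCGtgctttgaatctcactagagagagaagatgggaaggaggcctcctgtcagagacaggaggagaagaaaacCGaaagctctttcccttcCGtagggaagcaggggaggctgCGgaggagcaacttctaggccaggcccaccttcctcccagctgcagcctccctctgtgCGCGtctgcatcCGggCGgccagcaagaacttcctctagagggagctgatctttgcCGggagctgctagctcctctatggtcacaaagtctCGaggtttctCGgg
RT1-A2: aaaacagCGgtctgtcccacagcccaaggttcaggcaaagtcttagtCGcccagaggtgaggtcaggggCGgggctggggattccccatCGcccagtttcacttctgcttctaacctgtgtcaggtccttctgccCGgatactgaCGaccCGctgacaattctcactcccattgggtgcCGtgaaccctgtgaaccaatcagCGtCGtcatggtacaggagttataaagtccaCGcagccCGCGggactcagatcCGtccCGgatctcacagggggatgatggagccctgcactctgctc
Slc26a8: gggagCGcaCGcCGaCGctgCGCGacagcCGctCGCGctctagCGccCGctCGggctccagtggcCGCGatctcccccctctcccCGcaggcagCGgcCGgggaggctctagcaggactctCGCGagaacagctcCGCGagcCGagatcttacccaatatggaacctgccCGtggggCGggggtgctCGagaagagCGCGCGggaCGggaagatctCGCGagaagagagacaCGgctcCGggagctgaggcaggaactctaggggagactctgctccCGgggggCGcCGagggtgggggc

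All 11 CpGs of the *Lta* sequence and all 14 of the *Bak1* sequence matched positions in the tables, as did 11 of 15 for *RT1-A2* and 35 of 36 for *Slc26a8*. The next best placement in the genome that left no more than 10% of covered CpGs unmatched matched 4, 5, 5 and 6 CpGs in the same order. The motifs searched on both strands were CCAAT, held by 37.5% of the 33469 promoters of this length, GGGCGG, held by 33.1%, TGACG, held by 21.2%, the MspI site CCGG, held by 51.4%, and an interferon-stimulated response element, held by 3.92% and by none of these. *Lta* held 3 CCGG and 1 GGGCGG, on the reverse strand, and *Bak1* held 3 CCGG and 1 GGGCGG. *RT1-A2* held 2 CCGG, 1 GGGCGG, 1 TGACG and 1 CCAAT on the forward strand, with 1 TGACG and 1 CCAAT on the reverse strand. *Slc26a8* held 3 CCGG, 1 GGGCGG and 1 CCAAT. CCGG reads the same on both strands, and overlaps of different motifs came to 0, 1, 0 and 0 pairs in *Lta*, *Bak1*, *RT1-A2* and *Slc26a8* in that order.

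The 12 methylation libraries held 46257452 to 68940379 reads at CpG cytosines. Members had a median of 20 to 29 reads per CSR library and 23 to 31 per control library. Among the transcripts, 8 of 10 germ cell markers were found, with a summed level of 16190 to 18928 FPKM in CSR and 9348 to 17308 FPKM in control, and none of 3 epididymis markers was found. The file codes of the methylation libraries use for control the letter that the RNA codes use for CSR. Groups were taken from the labels, so every direction of change in methylation depends on those being right. The codes of control RNA libraries 1 and 2 differ only in the last digit, unlike those of any other pair of RNA libraries. Whether these libraries come from the same animal is not stated. Libraries stood apart in 2 ways. CSR 2 and CSR 3 held the same level at 97.8% of 969 CpGs outside the region whose levels in all 12 libraries lay near 0, 50 or 100%, against 37.4% to 51.0% for every other pair of libraries. CSR 6 and control 6 shared unusual levels within the region, which are described below with the values obtained without both libraries.

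The region was less methylated than the rest of the genome in all 12 libraries. Over the 3189 members with 10 or more reads in all 12 libraries, CSR libraries read 51.9%, 52.5%, 52.0%, 52.9%, 51.5% and 51.1%, and control libraries read 52.3%, 52.3%, 51.9%, 52.6%, 51.1% and 52.6%. Over the 647478 such CpGs elsewhere, CSR libraries read 65.1% to 66.3% and control libraries 64.8% to 66.04%. The region lay 13.5 points below the rest in the mean, with the smallest gap 13.2 points in control 3 and the widest 14.1 points in CSR 6. An exact two-sided sign-flip test over the 12 libraries gave p = 0.000488, the smallest it can give with 12 libraries. Any window whose gap has the same sign in all 12 libraries gets this p. The test covers the libraries and not the choice of region, so it does not show that the region is unusual. The region minus the rest of chromosome 20 came to -14.3 points.

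**Figure D1:**
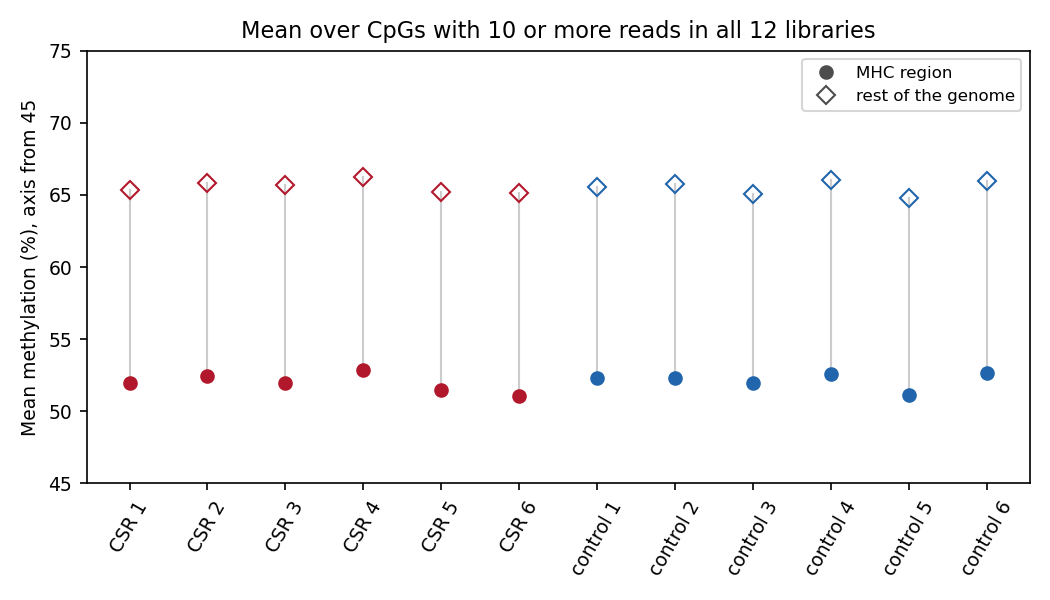
Mean methylation in percent (vertical axis, from 45) for each CSR and control library (horizontal axis), over CpGs with 10 or more reads in all 12 libraries. Filled circles are the MHC region and open diamonds the rest of the genome. The 12 circles sit between 51.1% and 52.9%, all below the 12 diamonds at 64.8% to 66.3%.

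The difference in level went with a different mix of CpGs. Under 10% methylation stood 32.5% of the region's CpGs, against 19.3% of those elsewhere, and 35.8% stood at 90% or more, against 48.8% elsewhere. Cut into 5-Mb windows, the genome gave 549 windows with at least 100 CpGs. By mean level the region ranked 522 of 549 from the highest, at 52.1% against a median window of 67.0%. By number of members it ranked 14 of 549, with 6729 against a median of 2045, and by the share under 10% it ranked 43 of 549. The ranks describe where one window lies and carry no test.

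Members were spread unevenly along the region. The first lay at 1179952 and the last at 5999976, and 186047 bases between 1339231 and 1525278 held none. The megabase from 1000000 held 285 members, that from 2000000 held 406, and those from 3000000, 4000000 and 5000000 held 1761, 1861 and 2416. Of 50 windows of 100 kb, 4 held no member and the median window held 95.5. Neighbouring members lay a median of 25 bases apart, and 68.2% of neighbours lay within 50 bases, against 33 bases and 61.5% in the rest of chromosome 20.

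The 3 windows with the most members were those from 5400000 with 417, from 5500000 with 402 and from 4300000 with 382. The first holds the placed promoters of *B3galt4*, *Daxx*, *Pfdn6*, *Rps18*, *Tapbp*, *Vps52*, *Wdr46* and *Zbtb22*, a mix of a chromatin factor (*Daxx*), a ribosomal protein gene (*Rps18*) and tapasin (*Tapbp*), which loads peptides on class I molecules. The second holds *Cuta*, *Kifc1*, *Phf1* and *Zbtb9*, where *Kifc1* encodes a minus-end kinesin and *Phf1* a partner of Polycomb complex PRC2. The third holds *Agpat1*, *Pbx2* and *Ppt2*, of which *Agpat1* makes phosphatidic acid and *Pbx2* is a homeobox factor.

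By megabase the level was highest at the sparse end. From 1000000 it was 59.9% ± 2.07 in CSR and 60.6% ± 1.17 in control (SD over 6 libraries each), and from 2000000 it was 51.6% ± 2.20 in CSR and 51.9% ± 0.943 in control. The lowest megabase, from 4000000, read 48.3% ± 0.645 in CSR and 48.9% ± 0.507 in control. The median SD within groups at single CpGs was 5.68, 5.81, 6.26, 6.39 and 5.22 points from the first megabase to the last.

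Levels ran from near 0 to near 90% over the 34 windows with at least 10 CpGs read in all 12 libraries. The lowest was the window from 5300000 over the class I gene *RT1-A2*, which read 1.14% ± 0.658 in CSR and 0.808% ± 0.689 in control (SD over 6 libraries each) over 45 CpGs. The window from 3100000, with no placed promoter, read 14.2% ± 0.725 in CSR and 14.3% ± 1.10 in control. The window from 1800000 read 21.2% ± 5.27 in CSR and 18.5% ± 5.11 in control, over 19 CpGs.

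The highest window, from 4200000, read 89.8% ± 4.04 in CSR and 89.98% ± 2.14 in control, but over 10 CpGs. The window from 5700000, which holds *Fkbp5*, *Uqcc2* and *LOC134483859*, read 83.9% ± 1.14 in CSR and 82.6% ± 1.07 in control over 80 CpGs. *Fkbp5* encodes a co-chaperone of the glucocorticoid receptor and *Uqcc2* an assembly factor of respiratory complex III. The window from 2200000 read 82.8% ± 2.07 in CSR and 81.8% ± 1.83 in control. In all, 15 windows lay under 50% and 19 at 50% or more.

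**Figure D2:**
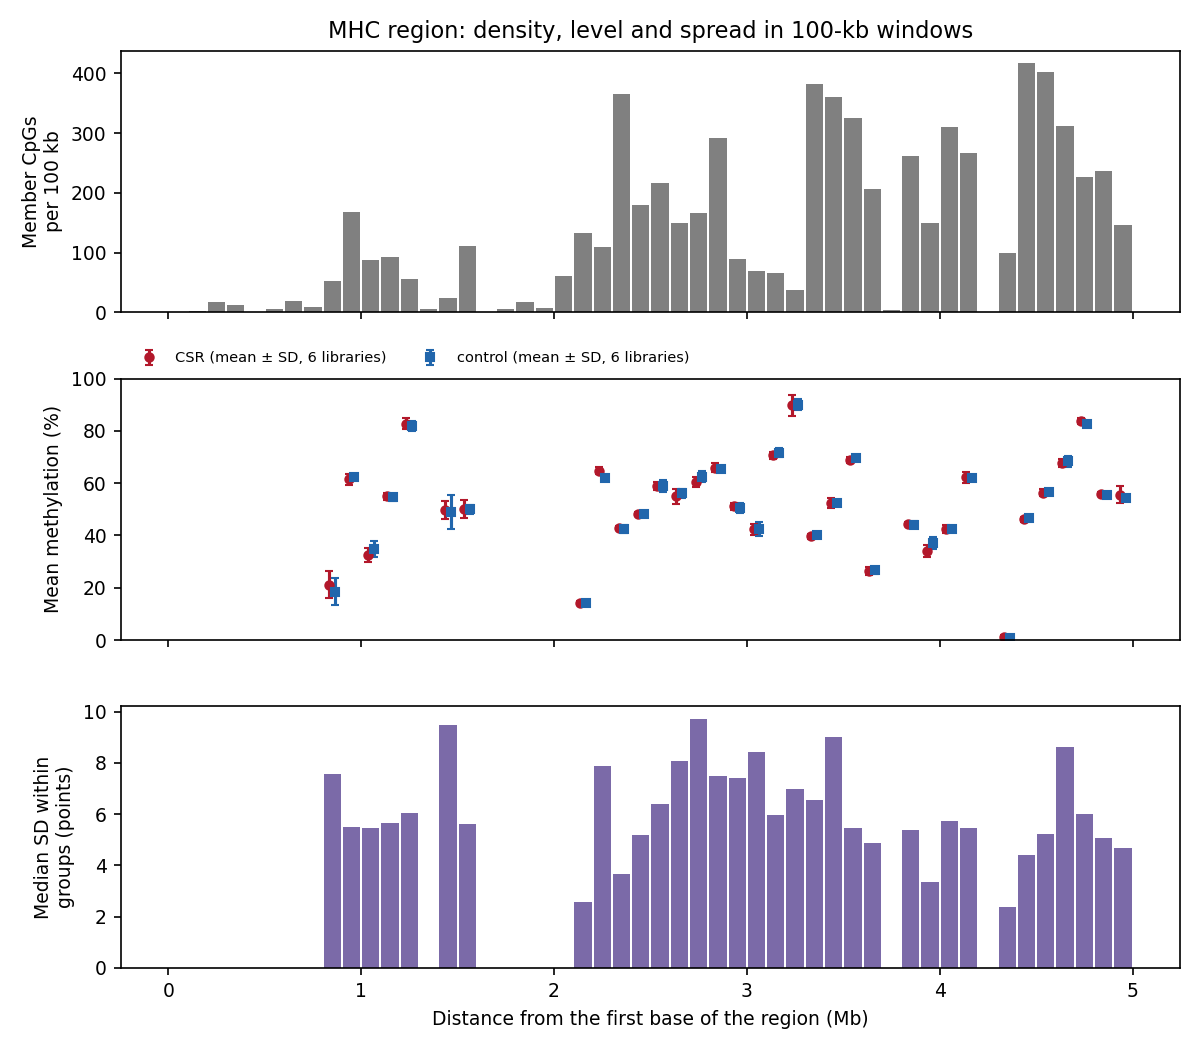
Member CpGs per 100 kb (top), mean methylation in percent for CSR and control libraries with SD over 6 libraries each (middle) and median SD within groups in points (bottom), against the distance from the first base of the region in Mb. The first 2 Mb hold few members, and the 34 windows with a level run from 0.973% to 89.9% with CSR and control points close together.

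Tiles of 1000 bp with little methylation lay partly at promoters. Runs were formed from the 572 tiles of the region with 10 or more reads in every library. A total of 89 runs of neighbouring tiles lay under 10%, and 37 of them held a placed promoter start. A run also ended where the next 1000 bases held no such tile, so the number and length of runs depend on coverage. The longest ran over 3 tiles. That at chr20:4895001-4898000 covers the starts of the class I gene *RT1-CE5* and of *LOC134483853* with 53 CpGs, at 0% to 13.04% over all tiles and libraries. The run chr20:3395001-3398000 at *Ppp1r18* lay at 0% to 8.13% over 52 CpGs. The run chr20:5049001-5052000 held 53 CpGs at 1.47% to 21.1% and no placed promoter start. Class I genes have near-identical copies, so reads and a promoter placement at *RT1-CE5*, *RT1-CE16* or *RT1-A2* may belong to a copy.

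Spread between libraries was measured by the SD. The median SD within groups was 5.88 points for CpGs of the region and 5.59 points for those elsewhere, a difference of 0.294 points, and the region ranked 165 of 549 windows. With at least 20 reads per CpG the difference turned to -0.129 points. SD depends on level, and within classes of level the region read 2.73 points against 2.86 elsewhere under 10%, 12.6 against 11.4 at 10 to 50%, 10.5 against 9.82 at 50 to 90%, and 4.86 against 4.55 at 90% or more. These differences were not tested. Along the region the median SD ran from 2.39 points in the window from 5300000 to 9.73 points in the window from 3700000, which holds *RT1-A3* and *RT1-CE16*. These window values rest on CpGs with 10 or more reads in all 12 libraries, which were 45 of the 99 members in the window from 5300000. Left out there are 15 members between 5381817 and 5381983 that CSR 6 and control 6 lacked, described below.

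An SD of 20 points or more over the 12 libraries was found at 66 CpGs of the region, or 2.07%, against 1.53% elsewhere. Large departures were not spread evenly over the libraries. A library was counted as far from the others at a CpG when it lay 50 points or more from the median of the 12. The count was made over all 3189 CpGs of the region with 10 or more reads in all 12 libraries. CSR 6 was far at 28 CpGs and control 6 at 23, while the other 10 libraries were far at 0 to 10 CpGs each. Per 1000 CpGs this gave 8.78 for CSR 6 and 7.21 for control 6 in the region, against 1.63 and 2.00 for the same 2 libraries elsewhere.

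CSR 6 and control 6 were far together, on the same side, at 19 CpGs of the region. No other pair of libraries exceeded 7 there. Across the genome the pair was far together at 140 CpGs, of which 13.6% lay in this region, although it holds 0.490% of the CpGs. Its next highest 5-Mb window held 11. Such windows exist for other pairs elsewhere, since CSR 2 with CSR 3, CSR 4 with control 3 and CSR 4 with control 6 each reached 19 in a 5-Mb window outside the region.

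At 3897128, 73940 bases from the start of *Rxrb*, CSR libraries 1 to 6 read 3.45%, 7.89%, 0%, 27.8%, 0% and 100%, and control libraries 1 to 6 read 0%, 0%, 75%, 0%, 9.52% and 100%. At 4145010 the order was turned over, with CSR libraries at 44.1%, 92.3%, 94.4%, 36.8%, 100% and 0%, and control libraries at 91.5%, 100%, 24.0%, 90.9%, 93.2% and 0%. At both CpGs CSR 6 and control 6 sat at one end, and CSR 4 and control 3 in between or nearer to it, joined by CSR 1 at 4145010, with the remaining libraries at the opposite end. The same was seen at 5639820, 6277 bases from *Itpr3*, a calcium release channel gene, where CSR 6 and control 6 read 100% each, CSR 4 read 28.6% and control 3 read 16.7%, and no other library exceeded 9.84%.

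The 19 CpGs lay in 11 windows of 100 kb from 1969733 to 5749769, with CSR 6 and control 6 above the median at 10 and below it at 9. CSR 4 lay 20 points or more toward them at 18 of the 19, control 3 at 15, CSR 1 at 6 and CSR 3 at 2, and the other 6 libraries at none. By megabase from 1000000 on, chromosome 20 held 1, 0, 4, 7 and 7 of them in the region, then 3 and 2 in the 2 megabases after it. A DNA variant at a CpG and a change of methylation give the same bisulfite read, and which of them these CpGs hold was not tested. With 1 library of each group at the unusual level, the CSR minus control difference at the 19 CpGs ran from -25.7 points at 1969733, where CSR 1 and CSR 4 also read low, to 12.2 points at 5447277, and none was called.

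**Figure D3:**
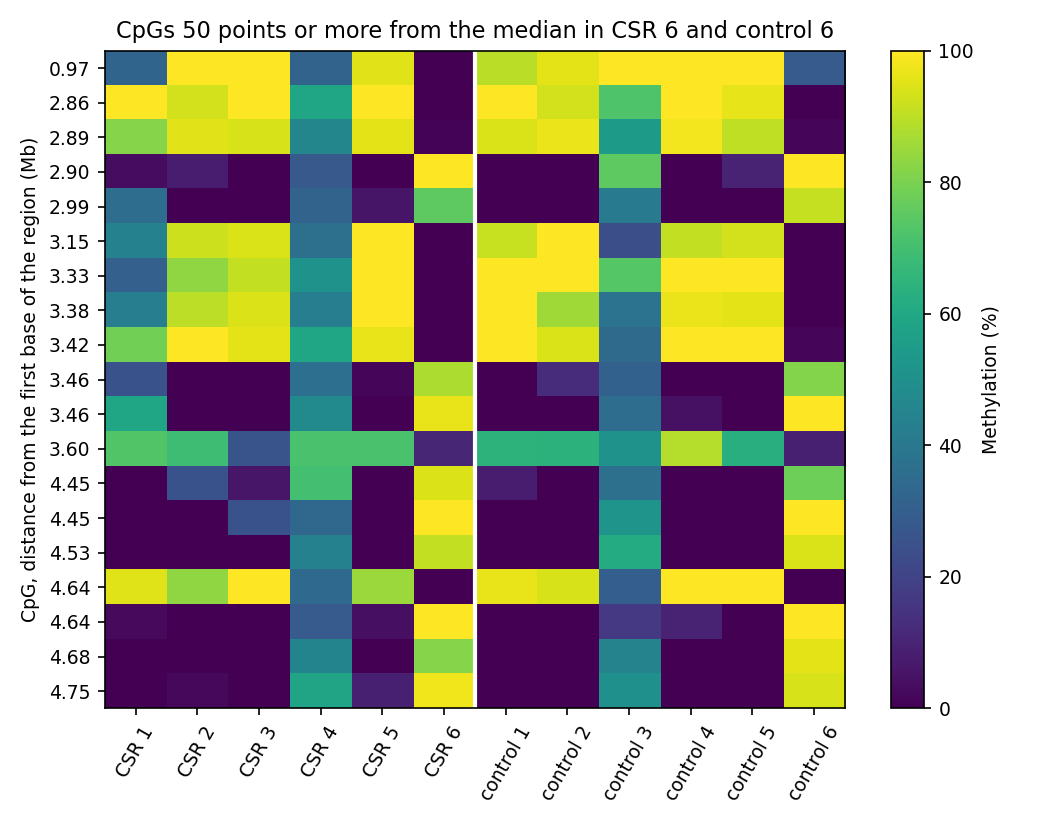
Methylation in percent (colour) at the 19 CpGs where CSR 6 and control 6 both lay 50 points or more from the median, in order along the region (distance from its first base in Mb), for 6 CSR libraries on the left of the white line and 6 control libraries on its right. CSR 6 and control 6 match each other at each CpG within 28.6 points, and CSR 4 and control 3 are mostly intermediate.

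The same 2 libraries also lacked the same CpGs. CSR 6 did not list 188 members, or 2.79%, against 0.708% of CpGs elsewhere, and control 6 did not list 208, or 3.09%, against 1.70% elsewhere. Both lacked 93 members together, 13.8 per 1000 against 0.484 per 1000 elsewhere, and the next highest pair in the region, CSR 4 with control 6, lacked 53 together. CSR 4 and CSR 5 each lacked more members than either, CSR 4 314 or 4.67%, against 2.57% of CpGs elsewhere, and CSR 5 454 or 6.75%, against 5.54% elsewhere.

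The absent CpGs came in clusters. All 16 members between 3983675 and 3984841, 4830 bases from the start of the immunoproteasome gene *Psmb9*, were listed in neither CSR 6 nor control 6, while the other 10 libraries had medians of 10 to 66 reads there. The same held for all 15 members between 5381817 and 5381983, 6832 bases from *RT1-A2*, with medians of 6 to 55 reads in the other libraries. A further 9 of 9 members were absent from both at 5589807 to 5590035 and 9 of 9 at 2876379 to 2876511, where medians in the other libraries ran from 0 to 27 reads.

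**Figure D4:**
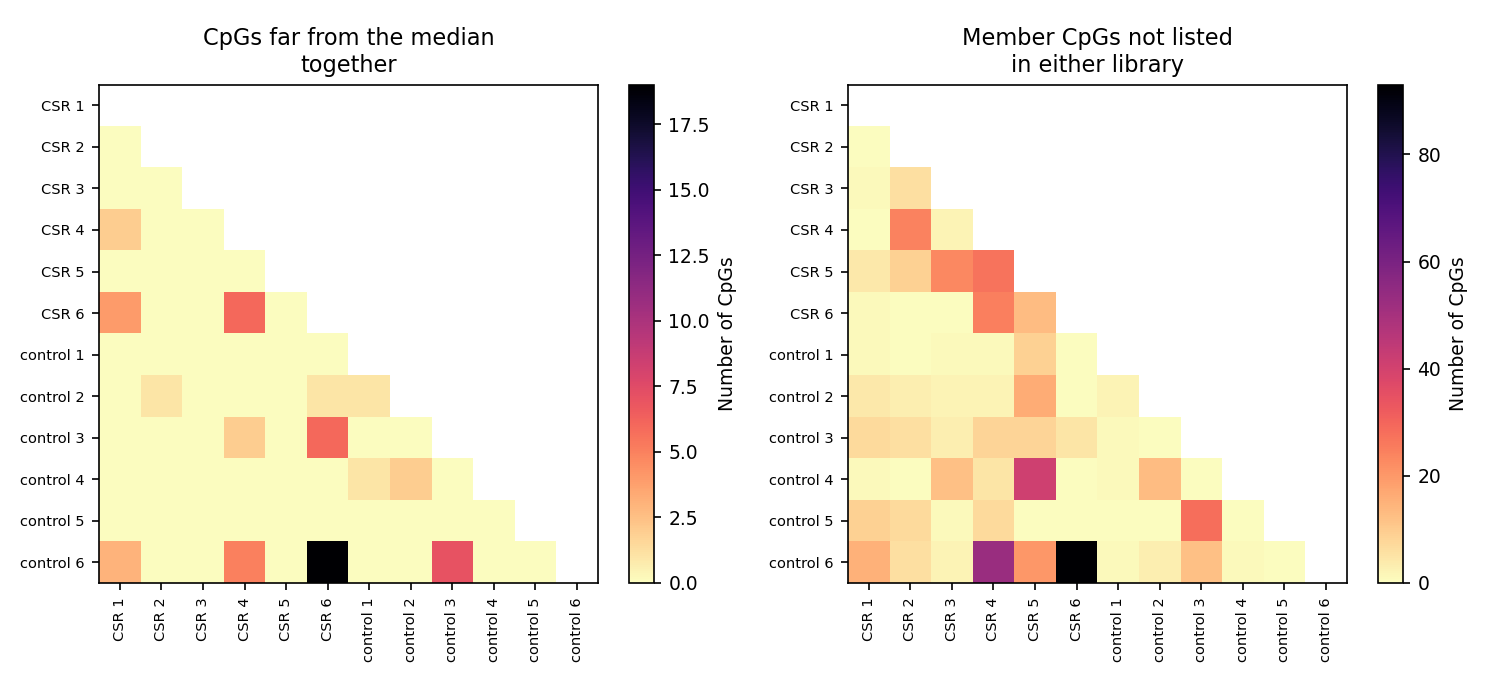
Each square is a pair of libraries, and colour gives a number of CpGs of the region. Left, CpGs at which both libraries lay 50 points or more from the median on the same side, highest at 19 for CSR 6 with control 6; right, member CpGs listed in neither library, highest at 93 for the same pair.

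The 5 tiles with the largest SD over the 12 libraries include one with absent CpGs. The tile chr20:3983001-3984000, 4156 bases from *Psmb9*, read 71.1% in CSR 6, against 12.3% to 30.7% in the other CSR libraries, and 70.0% in control 6, against 14.4% to 29.3% in the other control libraries. CSR 6 and control 6 each lacked 11 of its 15 CpGs, so their levels rest on other CpGs than those of the rest. In the tile chr20:4599001-4600000, 10995 bases from the sialidase gene *Neu1*, CSR 6 read 23.1% and control 6 read 29.5%, against 50.2% to 85.6% in the other libraries, and neither lacked a member there. The tile chr20:3567001-3568000, 10447 bases from the collagen receptor gene *Ddr1*, read 5.71% to 58.1% in CSR and 4.55% to 47.2% in control. The tile chr20:1525001-1526000 read 38.7% to 97.8% in CSR and 76.7% to 96.4% in control. In chr20:3830001-3831000, 6813 bases from the retinoid X receptor gene *Rxrb*, CSR libraries read 40% to 85.6% and control libraries 33.9% to 84.5%.

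CpGs whose 12 levels all lay within 15 points of 0, 50 or 100%, with at most 9 libraries at one level, numbered 5 in the region, 0.157% of its CpGs, against 0.150% elsewhere. The 3 with the largest difference between groups are given as a description. At 5799689, 11737 bases from *Fkbp5*, CSR libraries read 42.3%, 60%, 45%, 0%, 42.9% and 47.6%, and control libraries read 100%, 100%, 0%, 100%, 42.9% and 0%. At 4464937 CSR libraries read 58.8%, 0%, 0%, 47.4%, 0% and 96.7%, and control libraries 0%, 0%, 35.7%, 4.35%, 0% and 100%. At 4378191 CSR libraries read 42.9%, 90%, 94.7%, 42.9%, 100% and 0%, and control libraries 100%, 85.7%, 38.1%, 97.1%, 96.0% and 0%. The groups overlapped at each of them.

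Chronic sleep restriction and control were compared to ask whether methylation of the region differed after sleep restriction. The mean over the region was 52.0% (SD 0.647, n = 6) in CSR and 52.1% (SD 0.563, n = 6) in control, a difference of -0.172 points with a standard error of 0.366. limma over 549 windows of 5 Mb gave an unadjusted p of 0.644 and an adjusted p of 0.995, and 0 windows were called, or 0%. The sign turned to 0.0297 points without CSR 6, to 0.111 points without both CSR 6 and control 6, to 1.84 points with CpGs weighted by reads and to 0.804 points over all members with 10 or more reads in a library. It was -0.175 points with CSR 2 and CSR 3 summed. By megabase the difference lay between -0.710 and 0.0709 points.

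At single CpGs 0 of 6154 tested members were called by the quasi-binomial model at an adjusted p under 0.05 and 10 points, against 3 of 1238661, or 0.000242%, over the genome. An unadjusted p under 0.05 was found at 426 members, or 6.92%, against 7.55% of all CpGs, and limma on log2 ratios of reads gave 0 calls and 378 members at that level. The smallest adjusted p was 0.624. It belonged to 4389685, 789 bases from *Ppt2*, which read 0% in all 6 CSR libraries, against 0% to 23.1% with a median of 9.41% in control. At 3732497 CSR libraries read 46.3% to 97.1% with a median of 92.9%, against 96.7% to 100% in control, where CSR 1 and CSR 6 were the low ones at 53.3% and 46.3%. The third lower in CSR was 4836908, at 89.0% ± 6.26 in CSR and 99.3% ± 1.60 in control.

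Higher in CSR with the smallest p were 5030630, at 99.4% ± 1.57 in CSR and 90.04% ± 7.84 in control, 5826373, at 100% in all 6 CSR libraries and 72.2% to 93.3% in control, and 3126434, at 0% to 17.0% in CSR and 0% in all control libraries. Only at 5826373 of these 6 CpGs did the groups not overlap. No CpG of the 6 passed the adjusted threshold.

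Of 705 tiles of the region 0 were called, and 0% of 167463 tiles over the genome. An unadjusted p under 0.05 was found in 44 tiles of the region, or 6.24%, against 6.12% of all tiles, and limma on log2 ratios gave 0 calls and 34 such tiles. The smallest p, 0.000747, belonged to chr20:4614001-4615000, 2230 bases from *LOC120098979*, at 11.9% to 26.6% with a median of 16.6% in CSR and 22.2% to 41.4% with a median of 30.4% in control. It was 13.2 points lower in CSR, adjusted p 0.793. The tiles chr20:4367001-4368000 and chr20:4344001-4345000, near *Agpat1* and *Pbx2*, were lower in CSR, with differences of -8.28 and -6.30 points. Higher in CSR were chr20:4342001-4343000 by 13.6 points, over 4 CSR libraries because no CpG there reached 10 reads in CSR 2 and CSR 3, chr20:4852001-4853000, which holds the *Lta* start, by 13.3 points, and chr20:5733001-5734000 by 9.27 points. The adjusted p of these 6 tiles lay between 0.793 and 0.799, and the groups overlapped in each.

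Of 34 windows of 100 kb 0 were called by limma, against 0% of 15684, with 2 at an unadjusted p under 0.05, or 5.88%, against 5.17%. The window from 3200000, which holds *Gnl1*, read 64.8% ± 1.28 in CSR and 61.8% ± 1.13 in control (SD, 6 libraries each), 2.97 points higher in CSR with an adjusted p of 0.851. The difference was 0.999 points at a minimum of 5 reads, with an unadjusted p of 0.205, and 1.68 points without CSR 4. The window from 4900000, which holds *Hspa1l*, *Lsm2* and *Vars1*, read 34.0% ± 2.23 in CSR and 37.1% ± 2.31 in control, 3.02 points lower in CSR with an adjusted p of 0.954. At a minimum of 5 reads the difference turned to 0.0250 points, and it was -1.18 points without CSR 4 and without CSR 5. The other 4 named for their p were those from 5700000 and 1800000, higher in CSR by 1.31 and 2.73 points, and those from 3700000 and 2000000, lower in CSR by 2.02 and 2.35 points. None of the 4 had an unadjusted p under 0.05.

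The promoters measured in the region were nearly all unmethylated. Of 80 placed promoters, from 72 genes, 46 held at least 3 members, and 40 of these lay under 5%, 4 between 5 and 10% and 2 over 50%. Their median was 0.875%. Placement needs at least 8 matched CpGs and so favours CpG-rich promoters. Placed promoters held a median of 23 CpGs, against 7 for all promoters of the RefSeq set. The share under 5% over all placed promoters of the genome was not computed, so the count cannot be set against other regions. The 5 lowest were those of *Hspa1l* at 0%, *Kifc1* at 0.132%, *Ppp1r10* at 0.152%, *Dhx16* at 0.191% and *Phf1* at 0.238%. *Ppp1r10* encodes a nuclear subunit of protein phosphatase 1 and *Dhx16* a splicing helicase. No library exceeded 1.52% at any of the 5. *Hspa1l* rests on 3 CpGs and has no value in CSR 4 and CSR 5, *Kifc1* none in control 6, and *Ppp1r10* none in CSR 1 and control 4.

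The class I promoters were low. *RT1-A2* lay at 0% to 4.03% in CSR and 0% to 2.37% in control, *RT1-CE5* at 0% to 5.68% in CSR and 0% to 3.51% in control, and *RT1-CE16* at 0% to 1.11% in CSR and 0% to 5.83% in control. The promoter of *Ring1*, a Polycomb ubiquitin ligase, read 0% in the 4 CSR libraries with a value and 0% to 2.60% in 5 control libraries. The groups overlapped at these 4 promoters. Singled out after its values were seen, the promoter of *Rpp21*, an RNase P subunit, read 0% to 4.85% in CSR and 25.5% in control 1, against 2.27% to 4.55% in the other control libraries. Likewise singled out, 2 of the 3 placed *Cuta* promoters stood at 20.2% and 23.4% in CSR 4, against 0% in the other CSR libraries, and at 9.22% and 12.0% in control 6, against at most 1.82% in the other control libraries.

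*Lta*, which encodes the lymphocyte cytokine lymphotoxin alpha, had the promoter with the smallest p. Its 8 members averaged 61.9%, 60.5%, 66.7%, 55.1%, 49.4% and 66.9% in CSR libraries 1 to 6, against 36.6%, 45.2%, 45.4%, 52.0%, 45.9% and 40.3% in control libraries 1 to 6. The groups overlapped, since CSR 5 lay below control 4. The means were 60.1% (SD 6.81, n = 6) in CSR and 44.2% (SD 5.27, n = 6) in control, a difference of 15.8 points with a standard error of 3.37 and an unadjusted limma p of 0.000665. This was the smallest p of the 5253 promoters tested over the genome, and its adjusted p was 0.835, so it was not called. Over the 5 CpGs with 10 or more reads in all 12 libraries the means were 59.7% in CSR and 44.0% in control. With 1 library left out the difference ran from 13.6 to 18.0 points, and with CSR 2 and CSR 3 summed as 1 library it was 14.4 points.

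Within the printed *Lta* sequence, 7 of the 8 CpGs with values read higher in CSR. The largest difference was 27.0 points, at position -158 from the start, at 68.8% ± 13.2 in CSR and 41.9% ± 9.42 in control. At position -70 the means were 39.9% ± 23.01 in CSR and 14.7% ± 3.95 in control. The CpG at position -124 read 22.0% ± 19.5 in CSR and 23.5% ± 10.5 in control. The libraries held 57 to 349 reads over the promoter, and neighbouring CpGs share reads. *Lta* was looked up in the RNA table, which holds no transcript of it. In the RNA libraries, the 4 of 8 immune cell markers that were found summed to 6.45 to 9.47 FPKM in CSR and 11.5 to 14.6 FPKM in control, and the part of cell makeup in the *Lta* level was not tested. In bulk testis a change in the mix of cells and a change within cells cannot be told apart.

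*Bak1*, a gene of mitochondrial cell death, had the most methylated promoter. It read 72.6% to 87.5% with a median of 78.8% in CSR and 46.9% to 95.1% with a median of 81.0% in control. The low library was control 5, which read 38.1% to 51.2% at the 8 CpGs read in all 12 libraries. The means were 79.4% ± 6.46 in CSR and 77.8% ± 17.1 in control, and the difference of 1.60 points had an adjusted p of 0.957. Over those 8 CpGs the means were 77.5% in CSR and 77.7% in control, a difference of -0.272 points.

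The 4 promoters between 5 and 10% were those of *LOC134483856*, *Neu1*, *Mapk14* and *Slc26a8*. *Neu1*, the lysosomal sialidase, read 3.27% to 9.13% with a median of 6.64% in CSR and 6.71% to 11.2% with a median of 9.22% in control. It was 2.46 points lower in CSR with an unadjusted p of 0.0494 and an adjusted p of 0.835. The difference ran from -4.13 to -1.77 points with 1 library left out. Over its 3 CpGs read in all 12 libraries the means were 14.5% in CSR and 20.6% in control, a difference of -6.06 points with an unadjusted p of 0.0613. With *Lta* it made up the 2 of 46 promoters at an unadjusted p under 0.05, or 4.35%, against 1.98% of all placed promoters, and 0% of those were called. *LOC134483856* read 0% to 18.2% in CSR and 0% to 35.5% in control over 4 CpGs.

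*Mapk14*, the stress kinase p38 alpha, and *Slc26a8*, an anion transporter of sperm, start back to back, and their promoters share most of their CpGs. At *Slc26a8* CSR 5 read 32.9%, against 0.215% to 5.96% in the other CSR libraries, and control 1 read 14.5%, against 0% to 4.45% in the other control libraries. At *Mapk14* CSR 5 read 39.8%, against 0% to 7.39% in the other CSR libraries, and control 1 read 18.0%, against 0% to 5.51% in the other control libraries. Over the 15 CpGs of *Slc26a8* read in all 12 libraries CSR 5 read 32.9% but control 1 read 0.632%, and the means were 5.78% in CSR and 0.714% in control. Over the 9 such CpGs of *Mapk14* CSR 5 read 39.8% and control 1 read 1.05%, with means of 6.80% in CSR and 1.05% in control. The high values of control 1 therefore rest on CpGs that were not read in all 12 libraries. The adjusted p was 0.867 for *Slc26a8* and 0.875 for *Mapk14*.

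**Figure D5:**
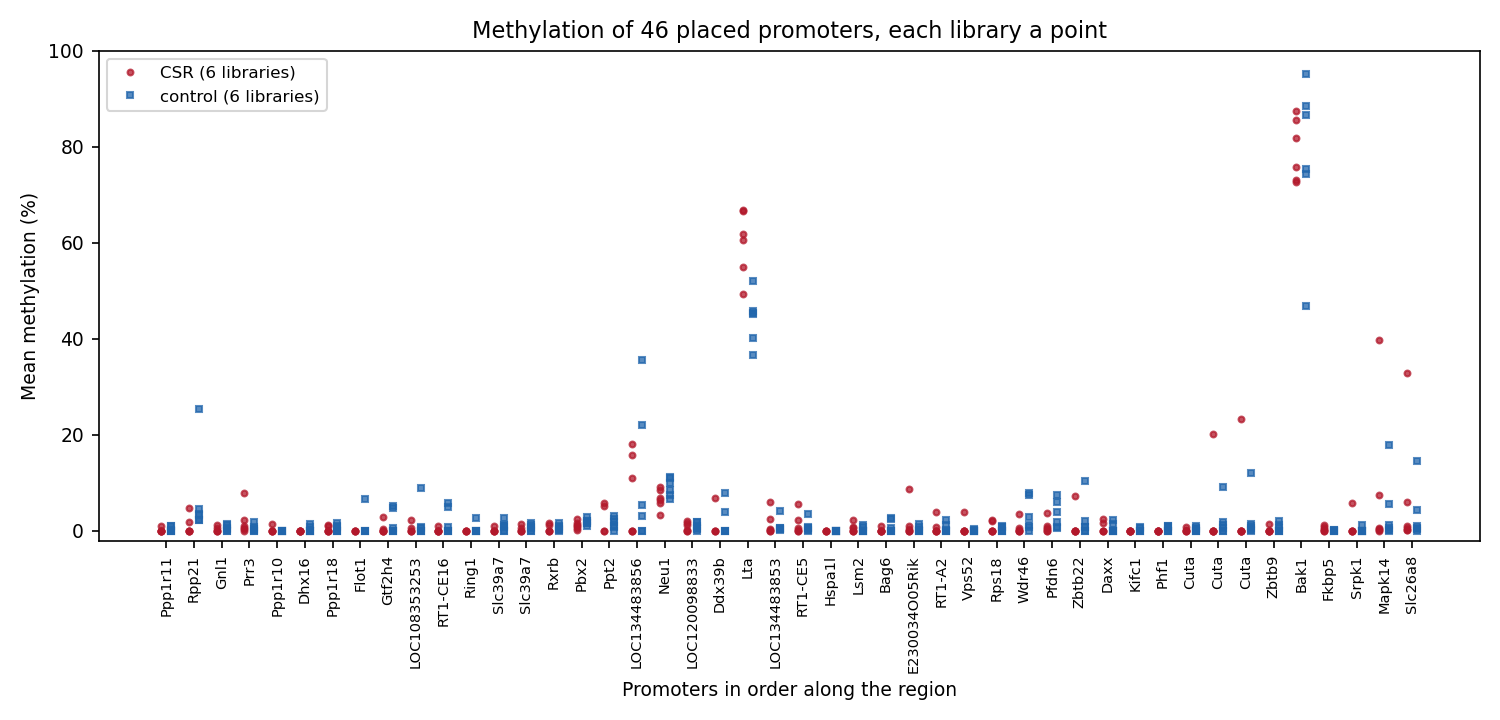
Mean methylation in percent (vertical axis) of the 46 placed promoters with at least 3 members, in order along the region; each point is a library, CSR as circles on the left and control as squares on the right of each gene. *Lta* lies at 36.6% to 66.9% and *Bak1* at 46.9% to 95.1%, and single libraries stand apart at several low promoters, among them *Mapk14*, *Slc26a8*, *Cuta* and *Rpp21*.

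Of the remaining promoters named for their p, *Fkbp5* read 0% to 1.30% in CSR and 0% to 0.233% in 5 control libraries, and *Prr3* read 0% to 7.82% in CSR and 0% to 1.83% in control. Over the 3 CpGs of *Prr3* read in all 12 libraries the means were 0% in CSR and 0.148% in control, so the direction turned. *Pfdn6*, a prefoldin subunit, read 0% to 3.80% in CSR and 0.513% to 7.56% in control. *Phf1* read 0% in all 6 CSR libraries and 0% to 1.10% in control. Their adjusted p was 0.835. RNA levels differed widely among genes with an unmethylated promoter. Of the 43 genes with a measured promoter, 26 had a transcript in the RNA table. Among 24 genes with a promoter under 5% and a transcript there, 21 had a mean of 1 FPKM or more and 3 had less. Levels ran from 0.253 FPKM at *RT1-CE5* to 202 FPKM at *Hspa1l*. Of all 7016 transcripts in the RNA table, 5657 had 1 FPKM or more in at least 3 libraries. That rule differs from the mean used here, and the split is not read as a trait of unmethylated promoters.

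Transcripts were read from a list of MHC genes ordered by role, of which 76 transcripts were in the RNA table and 62 were tested. The list includes *Trim27*, which RefSeq's table puts on chromosome 17. Called by limma were 0 of them, against 25 of 5657, or 0.442%, over all transcripts, and 5 had an unadjusted p under 0.05, against 748, or 13.2%. The median log2 fold change was 0.07 for the list and -0.06 for all transcripts (on log2 of FPKM + 1, where changes of weakly expressed genes appear smaller than they are). The groups did not overlap for 10 of the 62, against 21.5% of all transcripts tested.

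Those immune genes of the list that were in the RNA table stood low in testis. The 3 class I transcripts there, *RT1-T24-4*, *RT1-CE5* and *RT1-S3*, averaged 0 to 0.178 FPKM in CSR and 0.492 to 0.564 FPKM in control and were too low to be tested. *RT1-A2* and *RT1-CE16* had no transcript there, and RNA reads of class I genes may also belong to a copy. The level of class I RNA as a whole is therefore not known from these 3. The class II beta chain gene *RT1-Bb* read 5.10, 8.46 and 0 FPKM in CSR and 0.739, 5.33 and 6.46 FPKM in control. *RT1-Da* averaged 1.62 ± 1.46 FPKM in CSR and 3.73 ± 0.704 FPKM in control, and *RT1-Ba* 1.36 ± 1.22 FPKM in CSR and 1.02 ± 1.77 FPKM in control (SD over 3 libraries each). The immunoproteasome genes *Psmb8* and *Psmb9* averaged 1.17 ± 1.07 and 0.564 ± 0.977 FPKM in CSR, against 1.53 ± 0.145 and 1.41 ± 0.320 FPKM in control. *Tapbp* averaged 1.23 ± 1.35 FPKM in CSR and 0.1799 ± 0.0359 FPKM in control. *Nfkbil1*, the only tested gene of the cytokine group, averaged 4.59 ± 0.676 FPKM in CSR and 4.56 ± 0.518 FPKM in control. *C2*, of complement, was at 0 in the table for every CSR library and at 0.617 to 1.18 FPKM in control. No tested gene among these had an unadjusted p under 0.05.

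Other genes of the list were high. *Hspa1l*, whose promoter read 0%, stood at 238, 170 and 235 FPKM in CSR and 162, 191 and 218 FPKM in control. *Tcp11*, a sperm gene, averaged 318 ± 52.6 FPKM in CSR and 251 ± 77.6 FPKM in control (SD over 3 libraries each), the ribosomal protein gene *Rps18* 90.2 ± 5.23 FPKM in CSR and 100.9 ± 3.39 FPKM in control, and *Cchcr1* 80.1 ± 6.03 FPKM in CSR and 85.0 ± 3.41 FPKM in control. Of the chromatin genes, *Brd2*, a bromodomain reader, averaged 28.5 ± 3.26 FPKM in CSR and 26.7 ± 2.83 FPKM in control, and the higher of the *Bag6* transcripts, a gene needed for sperm formation in mice, 22.2 ± 7.53 FPKM in CSR and 17.4 ± 2.43 FPKM in control. The groups overlapped for each of these but *Rps18*. Its adjusted p was 0.399 and its log2 fold change -0.16 with a standard error of 0.08.

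Singled out after its values were seen, *Dxo*, an exonuclease that removes faulty mRNA caps, had the smallest adjusted p of the list, 0.0585. The table gives it 0 FPKM in each of the 3 CSR libraries and 2.04, 1.85 and 1.97 FPKM in control, and an exact 0 in such a table can be a failed estimate. The smallest adjusted p of the list was 0.0397 with no filter on low values, where 1 transcript was called, and 0.0545 to 0.712 under the other alternatives. The other 4 transcripts with an unadjusted p under 0.05 were higher in CSR, each with an adjusted limma p of 0.363, and were also singled out after their values were seen. *Nelfe*, of the negative elongation factor, averaged 16.5 ± 2.98 FPKM in CSR and 11.3 ± 0.239 FPKM in control for the transcript concerned (SD over 3 libraries each). *Hmga1*, an architectural chromatin protein gene, averaged 2.15 ± 0.405 FPKM in CSR and 1.06 ± 0.0824 FPKM in control. *Zbtb22*, a zinc finger gene, averaged 9.34 ± 3.12 FPKM in CSR and 4.37 ± 1.74 FPKM in control, and *Gpank1* 15.5 ± 2.75 FPKM in CSR and 11.2 ± 0.960 FPKM in control.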

How the data were processed

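Methylation was deposited by the authors as a read count (coverage) with the percent of C and of T reads for single CpG cytosines covered by at least 5 reads, per the file headers. Expression was deposited as FPKM per RefSeq transcript. The submitters' processing notes name Trim Galore, Bismark and SAMtools for RRBS, Trimmomatic, HISAT2 and StringTie for RNA, and rn6. Their versions and the depth of the RNA libraries are unknown here. Multiplying coverage by percent gave whole reads, which were added over the strands of each CpG. No molecular identifiers are mentioned.

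CpGs and 1000-bp tiles with at least 3 member CpGs were tested with a quasi-binomial model of methylated and unmethylated reads, the dispersion moderated with limma 3.58.1 in R 4.3.3. Library means of windows (100 kb with at least 10 CpGs, 5 Mb with at least 100) and promoters were tested with limma, and log2(FPKM + 1) with limma and a trend, for transcripts of 1 FPKM or more in at least 3 libraries. p-values were adjusted by Benjamini-Hochberg over the genome. A call needed an adjusted p under 0.05 and, for CpGs and tiles, 10 and 5 points.

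No rn6 genome or annotation was used here. Promoters (RefSeq, GRCr8) were placed by CpG spacing: at least 8 CpGs matched, at most 10% of covered CpGs did not, and any other placement that met this matched no more than 50% as many. The plan had set this limit on the next best placement without that condition, and read so it leaves 12 promoters in the region. Of 33469 promoters 9055 were placed, 99.6% on the chromosome the table names. Named items are, where nothing was called, the sites and regions with the 3 smallest p in each direction, the 3 highest, lowest and fullest windows, the 5 tiles with the largest SD, the 5 lowest, 5 highest and 5 most variable promoters and the 3 highest transcripts of a role. Members, lists and tests were chosen with earlier results of these data known. Outside the region, same-numbered libraries did not deviate together. The scripts were tested on simulated data.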

Additional observations from a re-analysis of the deposited data

Results flagged for a closer look

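In 89 groups of 6 libraries the highest or lowest library was set against the others. Of these, 18 were flagged because 1 library lay far from the rest of its group. Chance flags about 1 in 20 groups when they are picked without regard to their values. Here some groups were named for a large spread, some overlap and some lie near 0%, so the 18 cannot be set against that rate. CSR 6 was 50 points or more from the median at 28 CpGs, against at most 10 in the other CSR libraries, and control 6 at 23, against at most 7 in the other control libraries. The tile from 3983001 read 71.1% in CSR 6 and 70.0% in control 6, with the next highest at 30.7% in CSR and 29.3% in control. The *Mapk14* promoter read 39.8% in CSR 5 and 18.0% in control 1, and the overlapping *Slc26a8* promoter 32.9% in CSR 5 and 14.5% in control 1, but over CpGs read in all 12 libraries control 1 read 1.05% and 0.632% there. The *Cuta* promoters read 20.2% and 23.4% in CSR 4, with the other CSR libraries at 0%, and 9.22% and 12.0% in control 6, and that of *Rpp21* read 25.5% in control 1, against at most 4.55% in the other control libraries. At low levels, *RT1-CE16* read 1.11% in CSR 6, *RT1-A2* 4.03% in CSR 2 and *RT1-CE5* 3.51% in control 1. The *Prr3* promoter read 7.82% in CSR 3, against at most 2.18% in the other CSR libraries and 0% over CpGs read in all 12 libraries, and that of *Pfdn6* 3.80% in CSR 4, against at most 1.05%.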

How the results depend on the processing

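The difference of the region from the rest of the genome was -14.3 to -12.0 points under all 19 alternatives, and -14.2 to -12.8 points with 1 library left out. No alternative called a CpG, tile, window or promoter of the region, although without moderation the smallest adjusted p of a member was 0.00418, at a difference under 10 points. The region's CSR minus control difference, -0.172 points, ran from -0.397 to 0.0297 with 1 library left out and turned to 0.111 without both libraries numbered 6, to 1.84 with CpGs weighted by reads and to 0.804 over all members with 10 or more reads in that library; none passed. The spread difference was -0.129 at 20 reads and 0.205 to 0.327 with 1 library left out. Genotype-like members numbered 2 at a tolerance of 10 points, 0 at 20 reads and 9 with CSR 2 and 3 summed. Promoters placed fell to 12 where every other shift counted as a competing placement. With no filter 1 transcript of the list was called. The window from 4900000 turned to 0.0250 points at 5 reads, and that from 2000000 to 0.0302 at 20 reads. The replicate block left the difference at -0.172 with an adjusted p of 0.994 and called nothing in the region. Correlations of deviations between same-numbered libraries over tiles outside the region lay between -0.0107 and 0.0121. Within it they lay between -0.160 and 0.329, highest for the libraries numbered 6. This measure cannot decide whether replicate numbers pair the libraries. CSR 2 with CSR 3, which were alike at genotype-like CpGs, gave -0.0876 outside the region. That was the highest value of any pair within a group. The next was -0.111 for control 3 with control 5, and the lowest was -0.254 for control 5 with control 6. Pairs within a group lay below pairs across groups, so -0.0876 cannot be set against the range of the same-numbered libraries. Alternatives without both libraries numbered 6, on competing placements, on the most covered CpGs and on promoter CpGs read in all 12 libraries were chosen after seeing the data. Median depths near 20 to 30 reads limit single CpGs.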
